A study of Mus musculus with 4 samples.

Results

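The genes described here are the metallothioneins *Mt1*, *Mt2* and *Mt3*, the glucocorticoid targets *Fkbp5*, *Sgk1*, *Tsc22d3*, *Zbtb16*, *Hif3a* and *Plin4*, and *Nr3c1*, which encodes the glucocorticoid receptor. They are 10 of the 23420 gene symbols counted in mouse prefrontal cortex (PFC), and all 10 passed the filter on low counts. They were chosen by name with their values in the comparison of *Ash1L* shRNA and control samples already known, so their values in that comparison, and any call they carry, are a description and support nothing. RNA-seq libraries were made from 2 control samples (GFP-AAV9 in the labels, scrambled shRNA AAV in the methods) and 2 *Ash1L* shRNA samples (shRNA_ASH1L-AAV9). All mice were wild-type C57BL6/J. The GFP-tagged virus was injected into the medial PFC on both sides, and the U6 promoter that drives the shRNA is not restricted to a cell type. The series description gives an age of 6 to 8 weeks with 3 *Ash1L* shRNA mice and 2 control mice, whereas the methods give injection at 5 weeks and pool punches of GFP-positive tissue from 3 mice per sample. The question was whether the metallothioneins moved with glucocorticoid targets.

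Metallothioneins are small cysteine-rich proteins that bind zinc and copper. Zinc induces *Mt1* and *Mt2* through the transcription factor MTF-1, which binds metal response elements (MRE) near the transcription start. Glucocorticoids and inflammatory cytokines are further inducers of both genes. In brain, *Mt1* and *Mt2* are expressed mainly by astrocytes, and *Mt3* is the brain-enriched form. Glucocorticoids bind the receptor encoded by *Nr3c1*, which leaves its chaperone complex, enters the nucleus and binds glucocorticoid response elements (GRE), and the other members named above are widely used readouts of this pathway.

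The counts totalled 14251190 and 35764874 in control samples 1 and 2, and 27479339 and 20106708 in *Ash1L* shRNA samples 1 and 2. Relative counting error follows the count of each gene. *Mt2*, for example, had fewer reads in *Ash1L* shRNA sample 2 (273) than in control sample 1 (440). Levels are given as CPM, counts per 1000000 counted reads after TMM scaling. The targeted gene, *Ash1l*, had 245 and 290 CPM in the control samples and 216 and 138 CPM in the *Ash1L* shRNA samples. The log2 ratio of *Ash1L* shRNA over control, given with its standard error (SE), was -0.60 (SE 0.22) for *Ash1l*. Its p, Benjamini-Hochberg adjusted over 16232 genes in the quasi-likelihood test of edgeR, was 0.275. DOWN and UP stand for an unadjusted P under 0.05 with at least a 1.2-fold change. By this rule 8.28% of all tested genes were DOWN and 8.61% were UP. After adjustment, 1 of the 16232 genes passed 0.05, or 0.00616%, and it was none of the genes named here. The cortical excitatory neuron markers, which check the dissected tissue, were detected in all samples, with 2139 to 3363 CPM in sum over 8 genes.

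The promoter sequences of the metallothioneins are shown because these genes lie close together and because *Mt1* and *Mt2* are known to respond to metals. A *Sgk1* promoter is shown because it holds the only full GRE match among the members. The sequences are the 250 bases before each RefSeq transcription start on GRCm38.p6 (mm10), plus strand, 5′ to 3′, with MRE matches in capitals for the metallothioneins and the GRE match in capitals for *Sgk1*. An MRE was searched as TGCACNC or TGCGCNC and a GRE as AGAACA, any 3 bases and then TGTTCT, each on both strands.
*Mt1*, chr8:94178839-94179088: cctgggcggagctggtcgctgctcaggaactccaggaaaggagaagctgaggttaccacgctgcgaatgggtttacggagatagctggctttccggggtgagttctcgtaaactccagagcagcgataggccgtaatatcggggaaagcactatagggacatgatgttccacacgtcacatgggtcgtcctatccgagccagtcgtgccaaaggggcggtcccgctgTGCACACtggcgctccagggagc
*Mt2*, chr8:94172368-94172617: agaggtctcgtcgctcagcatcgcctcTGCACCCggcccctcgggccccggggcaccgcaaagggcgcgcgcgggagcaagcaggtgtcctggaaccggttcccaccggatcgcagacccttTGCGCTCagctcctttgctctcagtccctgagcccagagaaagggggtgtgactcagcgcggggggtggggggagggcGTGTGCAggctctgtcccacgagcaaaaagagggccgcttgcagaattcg
*Mt3*, chr8:94152357-94152606: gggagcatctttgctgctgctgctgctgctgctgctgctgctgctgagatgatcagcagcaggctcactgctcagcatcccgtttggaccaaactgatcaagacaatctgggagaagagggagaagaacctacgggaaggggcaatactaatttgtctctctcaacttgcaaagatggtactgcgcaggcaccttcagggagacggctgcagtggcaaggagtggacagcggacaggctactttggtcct
*Sgk1*, chr10:21993640-21993889: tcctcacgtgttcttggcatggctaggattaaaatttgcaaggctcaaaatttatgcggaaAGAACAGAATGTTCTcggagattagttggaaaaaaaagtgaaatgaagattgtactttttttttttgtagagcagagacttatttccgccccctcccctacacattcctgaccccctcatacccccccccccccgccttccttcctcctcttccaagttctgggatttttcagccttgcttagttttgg

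Windows of 300 bases, from 250 before to 50 after the start, were available for 8 of the 10 members and not for *Zbtb16* and *Nr3c1*. The window of *Mt2* held 4 MRE matches and that of *Mt1* held 3, and 1 of those of *Mt2* and 2 of those of *Mt1* lay after the annotated start. Of all 32851 windows, 25.7% held at least 1 MRE match, 1.97% at least 3 and 0.517% at least 4. The windows of *Mt3*, *Mt4* and *Hif3a* and 1 of the 6 of *Sgk1* held 1 match each. That of *Mt3* lay after the start, so the *Mt3* sequence above has no capitals. The full GRE occurred in 3 of the 32851 windows, or 0.00913%, and 1 of these was the *Sgk1* window shown above, where it lay from 189 to 175 bases before the start. A single arm of the GRE, AGAACA, which the full GRE contains, occurred in 19% of all windows, among them 3 of the 6 *Sgk1* windows and 1 of the 3 *Tsc22d3* windows. *Fkbp5* and *Plin4* had none of these letters in their windows. The matches are a description of the sequence and carry no measurement of binding.

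**Figure D1:**
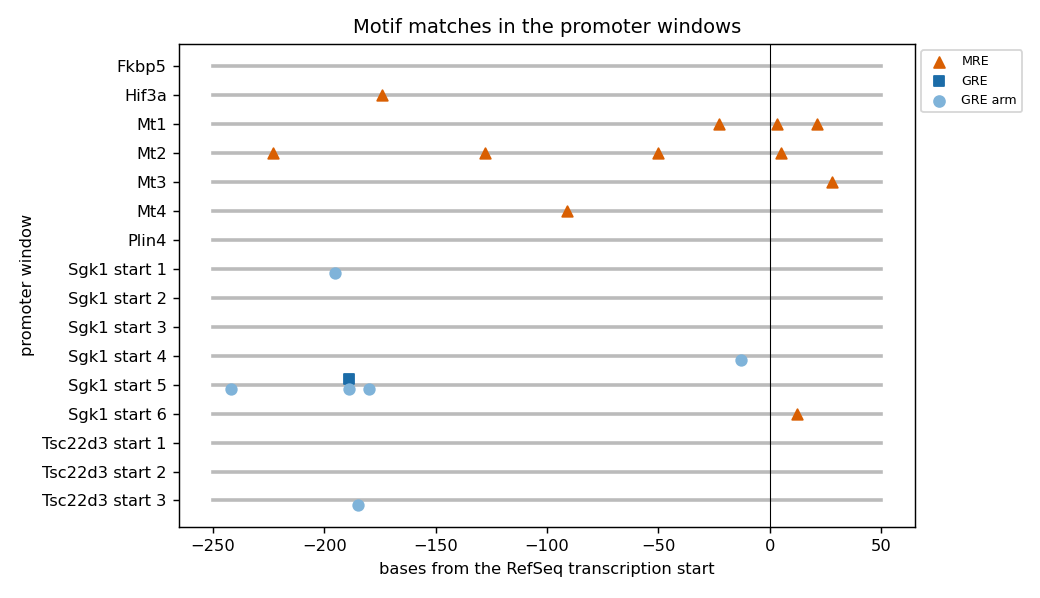
Positions of motif matches in the promoter windows of *Mt4* and the 8 members with a window, in bases from the RefSeq transcription start (x axis). Each grey line is 1 window, triangles mark MRE matches, the square a full GRE and circles a GRE arm. MRE matches are most numerous in *Mt1* and *Mt2*, and the only full GRE lies in 1 of the 6 *Sgk1* windows.

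All 3 metallothioneins lay below both controls in each *Ash1L* shRNA sample, and the *Ash1L* shRNA samples differed little from each other. For *Mt2*, 440 and 993 reads were counted in the controls (samples 1 and 2), and 369 and 273 under *Ash1L* shRNA. Scaled to library size, *Mt2* was at 31.2 and 28.3 CPM in the controls and at 13.5 and 13.2 CPM in the *Ash1L* shRNA samples. Its mean was 29.7 ± 2.02 CPM (SD, n = 2) against 13.3 ± 0.213 CPM (SD, n = 2), a log2 ratio of -1.16 (SE 0.14), or 55.1% less (a change of -55.1%). *Mt2* thus had the largest difference of the 10 members, and the gap between the groups was far wider than the spread within either.

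*Mt1* (ENSMUSG00000031765) gave 1156 and 3082 reads in the controls and 1456 and 1052 under *Ash1L* shRNA. These are 81.9 and 87.9 CPM in the controls and 53.2 and 50.8 CPM in the *Ash1L* shRNA samples. The means were 84.9 ± 4.22 and 52.0 ± 1.70 CPM (SD, n = 2 each), and the log2 ratio was -0.71 (SE 0.11). *Mt3* (ENSMUSG00000031760), which had the highest level per kb of exon of the members, differed least of the 3. It had 1939 and 4649 counts in the control samples and 2912 and 2005 in the *Ash1L* shRNA samples. The levels were 137 and 133 CPM in the controls and 106 and 96.7 CPM in the *Ash1L* shRNA samples. Means were 135 ± 3.42 and 102 ± 6.78 CPM (SD, n = 2 each), with a log2 ratio of -0.41 (SE 0.11). *Mt4*, the squamous epithelial form, was not tested, since 1 read was counted in *Ash1L* shRNA sample 2 and 0 in the other samples.

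Within each sample, the metallothioneins did not differ from control in equal proportion. Per kb of exon, the ratio of *Mt1* to *Mt2* was 2.45 and 2.89 in the controls and 3.67 and 3.59 in the *Ash1L* shRNA samples. The ratio of *Mt2* to *Mt3* per kb was 0.238 and 0.224 in the controls and 0.133 and 0.143 in the *Ash1L* shRNA samples. *Mt2* was therefore the member of the family that was reduced most against its neighbours, in both *Ash1L* shRNA samples. These ratios do not depend on the scaling between libraries.

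The metallothionein genes form a cluster on chromosome 8 of mm10, with *Mt4* (94137197 to 94139031), *Mt3* (94152607 to 94154146), *Mt2* (94172664 to 94173568) and *Mt1* (94179082 to 94180327) on the plus strand. *Mt2* (ENSMUSG00000031762) ends 5513 bases before *Mt1* starts. The coding sequences of *Mt1* and *Mt2* were 79.2% identical, and those of *Mt3* were 65.7% identical to *Mt1* and 67.2% to *Mt2*. No stretch of 50 bases in the transcripts of *Mt1* or *Mt3* occurred in a transcript of another gene in GENCODE vM21. For *Mt2*, 45.8% of such stretches were shared with a single gene, *Gm45774*, an antisense gene that overlaps *Mt2* on the other strand. The libraries were stranded per the methods, but whether the counting used the strand is not given in the sources used here. The overlap with *Gm45774* may therefore have affected the *Mt2* counts, and *Mt2* is uncertain to that extent.

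Some genes within 200 kb of the cluster were looked up by position. *Gnao1*, which encodes a G protein alpha subunit, was DOWN with a log2 ratio of -0.52 (SE 0.16). *Bbs2* and *Ogfod1*, which lie nearest on the *Mt4* side, had log2 ratios of -0.03 (SE 0.13) and -0.16 (SE 0.11). *Nup93*, the nearest on the *Mt1* side, had one of 0.39 (SE 0.20).

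**Figure D2:**
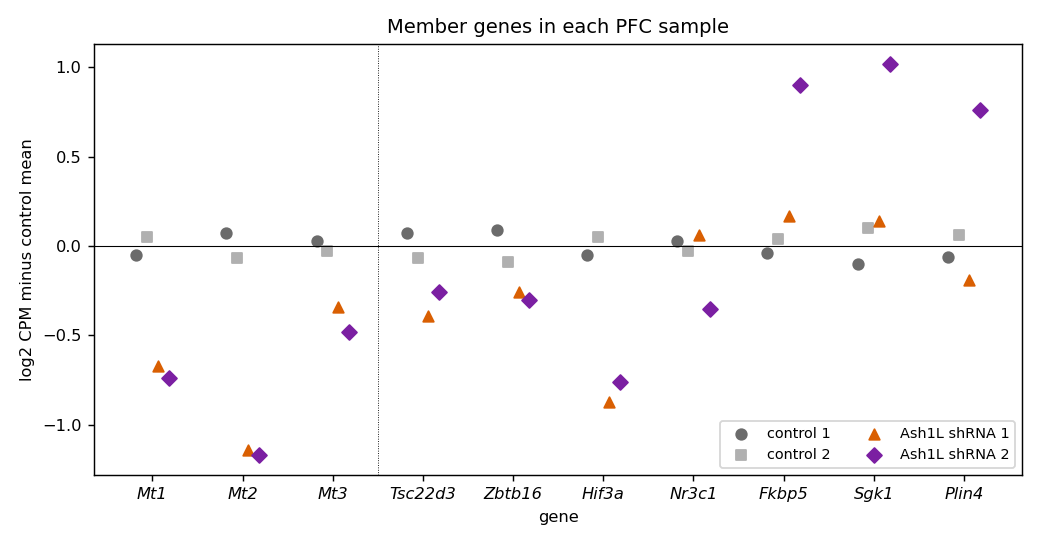
Log2 CPM of each member minus the mean of the 2 control samples (y axis), with 1 point per sample. The *Ash1L* shRNA samples lie within 0.14 of each other for *Mt1*, *Mt2*, *Mt3*, *Tsc22d3*, *Zbtb16* and *Hif3a*, all below the controls, whereas *Fkbp5*, *Sgk1* and *Plin4* stand high in *Ash1L* shRNA sample 2 alone.

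The 6 glucocorticoid targets did not move as 1 group. *Tsc22d3*, *Zbtb16* and *Hif3a* were lower in both *Ash1L* shRNA samples, while *Fkbp5* and *Sgk1* were higher in both, mainly through sample 2. *Tsc22d3* (ENSMUSG00000031431, chromosome X) encodes GILZ, a leucine zipper protein that carries part of the anti-inflammatory action of glucocorticoids. It was at 72.4 and 65.8 CPM in the controls and 52.5 and 57.7 CPM in the *Ash1L* shRNA samples. With means of 69.1 ± 4.65 and 55.1 ± 3.65 CPM (SD, n = 2 each), its log2 ratio was -0.33 (SE 0.12).

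*Zbtb16* (ENSMUSG00000066687, chromosome 9) encodes PLZF, a zinc finger repressor. It was at 73.0 and 64.8 CPM in the controls and at 57.5 and 55.8 CPM in the *Ash1L* shRNA samples, a log2 ratio of -0.28 (SE 0.12). *Hif3a* (ENSMUSG00000004328, chromosome 7) encodes an alpha subunit of the hypoxia-inducible factors that can act as an inhibitor of the others. It was the member with the lowest level, with 30 and 80 counts in the controls and 33 and 27 counts in the *Ash1L* shRNA samples. The levels were 2.20 ± 0.110 CPM in the controls and 1.25 ± 0.0692 CPM in the *Ash1L* shRNA samples (SD, n = 2 each), and the log2 ratio was -0.82 (SE 0.36). The groups did not overlap for *Tsc22d3*, *Zbtb16* or *Hif3a*, although so few counts leave *Hif3a* with a wide error.

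*Fkbp5* (ENSMUSG00000024222, chromosome 17) encodes a co-chaperone of Hsp90 that lowers the hormone affinity of the receptor and is itself induced by it. It had 326 and 852 counts in the controls and 728 and 919 in the *Ash1L* shRNA samples. The levels were 23.1 and 24.3 CPM in the controls and 26.6 and 44.3 CPM in *Ash1L* shRNA samples 1 and 2. *Ash1L* shRNA sample 1 lay just above the controls and sample 2 well above them. The means of 23.7 ± 0.844 and 35.5 ± 12.6 CPM (SD, n = 2 each) gave a log2 ratio of 0.58 (SE 0.25).

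*Sgk1* (ENSMUSG00000019970, chromosome 10), the serum- and glucocorticoid-regulated kinase that acts on ion channels and transporters, followed the same order of samples. It had 933 and 2651 counts in the controls and 2133 and 2971 in the *Ash1L* shRNA samples, or 66.1 and 75.6 CPM in the controls and 77.9 and 143 CPM in the *Ash1L* shRNA samples. The log2 ratio was 0.64 (SE 0.28). *Plin4* (ENSMUSG00000002831, chromosome 17), a coat protein of lipid droplets, was at 5.17 and 5.64 CPM in the controls and at 4.75 and 9.17 CPM in the *Ash1L* shRNA samples, a log2 ratio of 0.35 (SE 0.35). For *Plin4* the groups overlapped, since *Ash1L* shRNA sample 1 lay below both controls.

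*Nr3c1* (ENSMUSG00000024431), the receptor itself, was at 221 and 210 CPM in the controls and at 224 and 169 CPM in the *Ash1L* shRNA samples. Its log2 ratio was -0.13 (SE 0.16), and the groups overlapped. The direction of *Nr3c1* rested on *Ash1L* shRNA sample 2. Without that sample its log2 ratio was 0.06.

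In edgeR's quasi-likelihood test, *Mt1*, *Mt2*, *Mt3* and *Tsc22d3* of the 10 members met the rule for DOWN and no member met that for UP. Among all genes, 8.28% were DOWN and 8.61% UP. The calls depended on the tool. DESeq2 called 3 members DOWN and 2 UP, beside 1282 and 1243 among all genes. It was run without the filter on low counts, so these totals are not shares of the 16232 genes. The likelihood ratio test of edgeR called 4 members DOWN and 2 UP, beside 1268 and 1415 of the 16232 genes. Both *Ash1L* shRNA samples lay below both controls for 6 members and above both for 2, beside 26.8% and 26.5% of all tested genes. The log2 ratio was below 0 for 7 members, beside 50.3% of all tested genes. The members were chosen on this comparison, so the counts add nothing to their values.

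With 2 samples per group, leaving out 1 sample leaves the other alone in its group. The values below therefore restate the levels of each sample. With any 1 sample left out, the log2 ratio of *Mt2* stayed between -1.23 and -1.08, that of *Mt1* between -0.75 and -0.66, and that of *Mt3* between -0.48 and -0.34. For *Tsc22d3* it stayed between -0.40 and -0.25, for *Zbtb16* between -0.37 and -0.18, and for *Hif3a* between -0.87 and -0.76. Without *Ash1L* shRNA sample 2, by contrast, the log2 ratio of *Fkbp5* was 0.17, that of *Sgk1* was 0.14 and that of *Plin4* was -0.19. Without *Ash1L* shRNA sample 1, these 3 were at 0.90, 1.01 and 0.75. The log2 ratio of *Nr3c1* ranged from -0.36 to 0.06 over the samples left out.

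**Figure D3:**
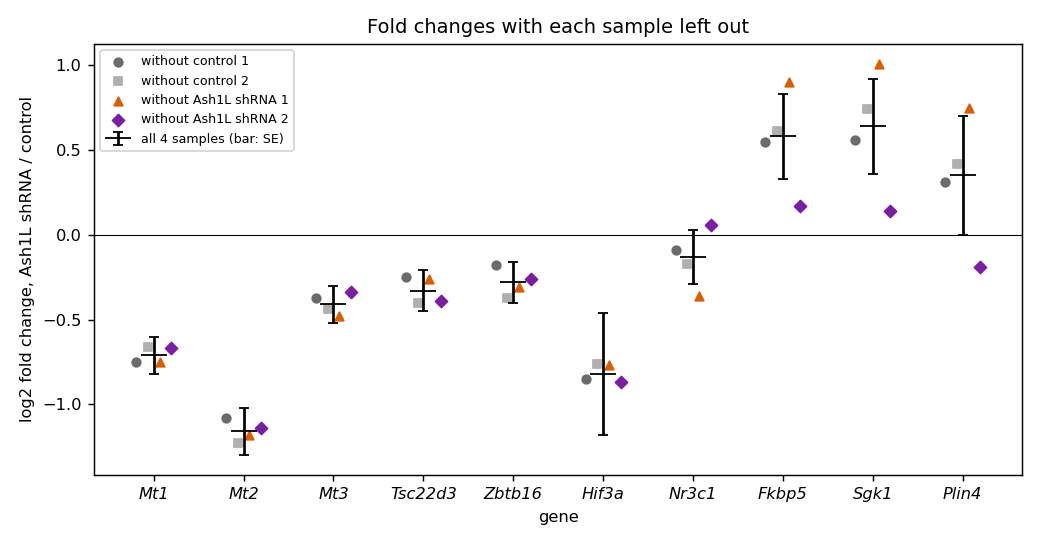
Log2 fold change of each member, *Ash1L* shRNA over control, with all 4 samples (black bar, with the SE) and with each sample left out in turn (symbols). Values for *Fkbp5*, *Sgk1* and *Plin4* are 0.17, 0.14 and -0.19 without *Ash1L* shRNA sample 2, while those of *Mt1*, *Mt2* and *Mt3* stay below 0 throughout.

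Set side by side, the metallothioneins averaged lower than the 6 glucocorticoid targets in both *Ash1L* shRNA samples, but not all targets differed from them alike. Against the control mean, the 3 metallothioneins averaged -0.72 and -0.80 (log2 difference) in *Ash1L* shRNA samples 1 and 2. The 6 targets averaged -0.23 and 0.23 in the same samples. *Tsc22d3*, *Zbtb16* and *Hif3a*, grouped after their values were seen, averaged -0.51 and -0.44, and *Fkbp5*, *Sgk1* and *Plin4* averaged 0.04 and 0.90. The mean log2 ratio was -0.76 for the metallothioneins and 0.02 for the targets, a difference of -0.78. The target mean of 0.02 averages genes of both directions, from -0.82 for *Hif3a* to 0.64 for *Sgk1*.

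Ratios within a sample, which no scaling between libraries can move, were lower in both *Ash1L* shRNA samples for *Mt2* against *Fkbp5*, *Sgk1* and *Tsc22d3*. Per kb of exon, *Mt2* was at 9.36 and 8.08 times the level of *Fkbp5* in the controls and at 3.51 and 2.06 times in *Ash1L* shRNA samples 1 and 2. The ratio of *Mt2* to *Sgk1* was 3.74 and 2.97 in the controls and 1.37 and 0.729 in the *Ash1L* shRNA samples, so that *Sgk1* exceeded *Mt2* in *Ash1L* shRNA sample 2 alone. Against *Tsc22d3*, the ratio of *Mt2* was 2.35 and 2.34 in the controls and 1.40 and 1.24 in the *Ash1L* shRNA samples. *Mt2* was therefore reduced further than *Tsc22d3*, which was lower as well. The ratio of *Mt1* to *Tsc22d3* moved less, from 5.74 and 6.77 in the controls to 5.13 and 4.46 in the *Ash1L* shRNA samples. *Hif3a*, with few counts, had a log2 ratio of -0.82 (SE 0.36), beside -0.71 for *Mt1* and -0.41 for *Mt3*.

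By level per kb of exon, the order in the control samples was *Mt3* at 252 CPM per kb, *Mt1* at 155, *Mt2* at 58.2, *Nr3c1* at 34.1, *Tsc22d3* at 24.8, *Sgk1* at 17.5, *Zbtb16* at 13.5, *Fkbp5* at 6.69, *Plin4* at 0.940 and *Hif3a* at 0.339 (means of 2 samples). No neighbours in this order overlapped between the control samples. By the means of the *Ash1L* shRNA samples the first 2 and the last 4 places were the same, while *Mt2* at 26.1 CPM per kb stood below *Nr3c1* at 31.0 and *Sgk1* at 27.3. *Mt2*, at 26.4 and 25.8 CPM per kb, and *Nr3c1*, at 35.4 and 26.6, did not overlap, but *Sgk1*, at 19.2 in sample 1 and 35.4 in sample 2, spanned them both and *Tsc22d3* in part. *Fkbp5*, at 7.50 and 12.5 CPM per kb, and *Zbtb16*, at 11.2 and 10.9, overlapped too, and *Fkbp5* stood above *Zbtb16* in sample 2.

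A wider list of 24 glucocorticoid-responsive genes outside the members gave no common direction. In edgeR's quasi-likelihood test, 3 were UP, 2 were DOWN and 19 were not called, and the median log2 ratio was 0.06, beside a median of -0.00 over all tested genes. Without *Ash1L* shRNA sample 2 this median was -0.06, and without sample 1 it was 0.19. *Cdkn1a*, an inhibitor of cyclin-dependent kinases that p53 also induces, was UP with a log2 ratio of 2.27 (SE 0.50, adjusted p 0.253). *Errfi1*, a feedback inhibitor of EGF receptor signalling, was UP at 1.39 (SE 0.49, adjusted p 0.276), and *Arrdc3*, an arrestin-domain protein, was UP at 0.31 (SE 0.11, adjusted p 0.265). *Glul*, the glutamine synthetase of astrocytes, was DOWN at -0.81 (SE 0.30, adjusted p 0.275), and *Klf15*, a Krüppel-like transcription factor, was DOWN at -0.80 (SE 0.20, adjusted p 0.253). *Fam107a*, with 477 and 351 CPM in the controls and 299 and 106 CPM in the *Ash1L* shRNA samples, was not called.

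Of the 24 genes in this list, 16 or 66.7% lay farther from the control mean in *Ash1L* shRNA sample 2 than in sample 1, beside 69.9% of all tested genes with counts in every sample, so the greater distance of sample 2 was common to most genes. *Dusp1*, a MAP kinase phosphatase, and *Per1*, a clock gene, were picked after their values were seen, and neither was called. *Dusp1* was at 24.1 and 22.2 CPM in the controls and at 24.4 and 121 CPM in the *Ash1L* shRNA samples. *Per1* was at 68.6 and 57.6 CPM in the controls, 42.9 CPM in *Ash1L* shRNA sample 1 and 108 CPM in sample 2. Of the 24 genes outside the members, 16 or 66.7% were higher in *Ash1L* shRNA sample 2 than in sample 1. Among 16189 tested genes with counts in every sample, 47.8% were. The list, too, was chosen with earlier results of these data known, so this share is a description. The 3 metallothioneins were all lower in sample 2 than in sample 1, by at most 0.14 on the log2 scale. Genes that respond to glucocorticoids also respond to other stimuli, and hormone levels were not measured here.

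**Figure D4:**
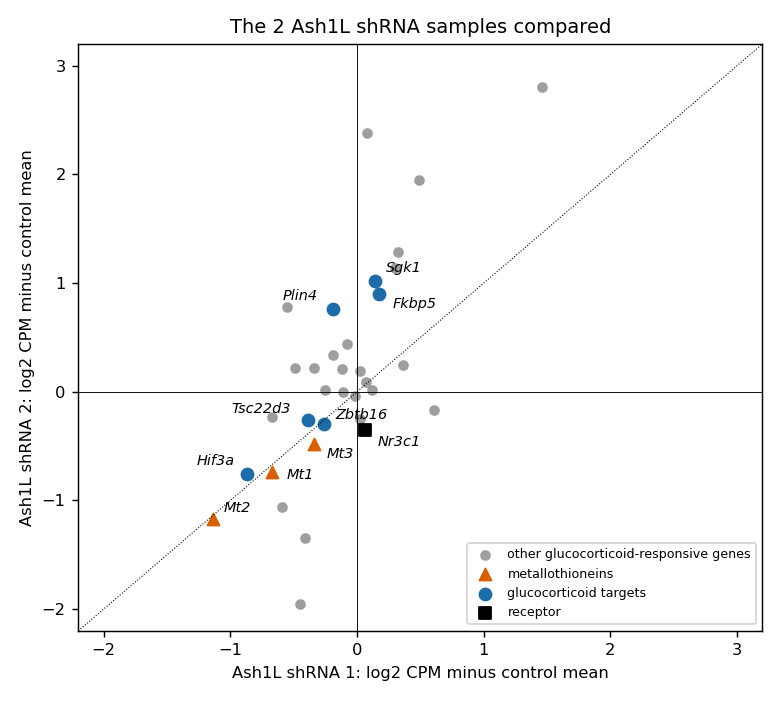
Log2 CPM minus the control mean in *Ash1L* shRNA sample 1 (x axis) and sample 2 (y axis) for the metallothioneins, the glucocorticoid targets, *Nr3c1* and 24 other glucocorticoid-responsive genes. Both axes share the control samples. The dotted line marks equal values, on which the metallothioneins nearly lie, with *Mt2* at -1.14 and -1.17, while *Fkbp5*, *Sgk1* and *Plin4* lie above it.

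Of 18 genes of the receptor machinery, 3 were DOWN, 1 was UP and 14 were not called, with a median log2 ratio of -0.10. They are called receptor partners below, though the list also holds *Nr3c2* and the steroid enzymes *Hsd11b1* and *Hsd11b2*. *Nr3c2*, the mineralocorticoid receptor that binds the same hormone, was DOWN with a log2 ratio of -0.33 (SE 0.13), from 47.5 to 37.6 CPM. The coactivators *Ncoa1* and *Ncoa2* were DOWN at -0.35 (SE 0.11) and -0.36 (SE 0.15). *Ptges3*, the p23 co-chaperone, was UP at 0.35 (SE 0.11). The abundant chaperones *Hsp90ab1* and *Hspa8* had log2 ratios of -0.14 and 0.10 (SE 0.12 each). Adjusted p of the 4 called genes ranged from 0.260 to 0.291 (quasi-likelihood test, edgeR).

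Of 34 genes that handle zinc, copper and iron or respond to metals, 4 were UP, 1 was DOWN and 29 were not called, with a median log2 ratio of -0.01. *Hmox1*, haem oxygenase, was UP with a log2 ratio of 1.28 (SE 0.17, adjusted p 0.231), from 9.64 to 23.3 CPM, opposite to the metallothioneins. *Fth1*, the ferritin heavy chain, was UP at 0.45 (SE 0.16), *Atp7a*, a copper transporter, at 0.55 (SE 0.15) and *Slc39a9*, a zinc transporter, at 0.35 (SE 0.11). *Slc39a12*, a zinc transporter known from astrocytes, was DOWN at -0.77 (SE 0.25). *Slc39a10*, a zinc importer with one of the highest counts in the list, had a log2 ratio of -0.04 (SE 0.11). The sensor gene *Mtf1* and the classical MTF-1 target *Slc30a1*, looked up after the values were seen, were not called, with log2 ratios of -0.08 (SE 0.14) and 0.04 (SE 0.11).

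Cytokine and acute phase genes, which share inducers with *Mt1* and *Mt2*, were a further list. Of the 18 tested, 5 were UP, 1 was DOWN and 12 were not called, with a median log2 ratio of 0.38. *Osmr*, the receptor of oncostatin M, was UP with a log2 ratio of 1.04 (SE 0.32), and *Il6st*, the shared gp130 subunit, at 0.44 (SE 0.13). *Serpina3n*, an acute phase gene of reactive astrocytes, was UP at 0.52 (SE 0.17), and the cytokines *Il1b* and *Ccl2* were UP at 2.18 (SE 0.63) and 1.93 (SE 0.52). Complement *C3* was DOWN at -2.19 (SE 0.64). Of 17 hypoxia-responsive genes, listed for *Hif3a*, 2 were UP (*Pfkfb3* at 0.70, SE 0.24, and *Ldha* at 0.49, SE 0.17), 1 was DOWN (*Egln1* at -0.51, SE 0.19) and 14 were not called, with a median of 0.19.

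Most astrocyte markers, though not all, were lower in the same samples as the metallothioneins. Of the 13 markers, 9 were DOWN, 0 were UP and 4 were not called, and the median log2 ratio was -0.71, beside -0.00 over all tested genes. After adjustment 0 passed 0.05 in edgeR's quasi-likelihood test, with 9 at an unadjusted P under 0.05, and 5 passed in DESeq2 and in edgeR's likelihood ratio test. Passing in those 2 tools was not limited to this list. Each tool also passed 4 peripheral immune markers, and 1 gene each of the other glucocorticoid-responsive, metal and interneuron lists. Of the cytokine and acute phase genes, 2 passed in DESeq2 and 3 in the likelihood ratio test. *Gja1*, which encodes the gap junction protein connexin 43, was DOWN at -0.99 (SE 0.15), *Slc1a3*, a glutamate transporter, at -0.94 (SE 0.18), *Fgfr3* at -0.95 (SE 0.15) and *Aldoc* at -1.18 (SE 0.39). *Slc1a2*, with the highest mean count of the list, was DOWN by less, at -0.47 (SE 0.18). The markers that were not called were *Aqp4*, the astrocyte water channel, with a log2 ratio of 0.11 (SE 0.14), *Gfap*, the intermediate filament of reactive astrocytes, at 0.00 (SE 0.12), *Sox9* at 0.06 (SE 0.39) and *S100b* at -0.27 (SE 0.20), and the groups overlapped for all 4. These 4 were named after their values were seen. The summed level of the list was 5834 and 6146 CPM in the controls and 4677 and 3453 CPM in the *Ash1L* shRNA samples, and no marker was at 0 in any sample. The median astrocyte marker lay at -0.55 (log2 difference from the control mean) in *Ash1L* shRNA sample 1 and at -1.06 in sample 2, against -0.67 and -0.74 for the median metallothionein. The part of astrocyte content in the metallothionein values was not tested. In bulk tissue, fewer cells of a type and less RNA per cell cannot be told apart.

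The other cell types also differed between the samples. The 10 endothelial markers had a median log2 ratio of 0.04 with 1 UP, and summed to 342 to 376 CPM in the controls and 340 to 391 CPM in the *Ash1L* shRNA samples. Of the 10 oligodendrocyte markers, 1 was DOWN, with a median of -0.19. Excitatory neuron markers had a median of -0.42 with 4 of 8 DOWN, and interneuron markers one of -0.31 with 3 of 8 DOWN. The 10 microglia markers summed to 957 and 984 CPM in the controls, 1316 CPM in *Ash1L* shRNA sample 1 and 506 CPM in sample 2. In edgeR's quasi-likelihood test 0 of the microglia markers were called, with 0 at an unadjusted P under 0.05, whereas DESeq2 called 1 DOWN. Meningeal fibroblast and mural markers had a median of 0.24, with 2 of 10 UP and 1 DOWN. Of the 9 peripheral immune markers in the tables, 7 were tested and 5 were DOWN, and the list summed to 46.1 and 81.5 CPM in the controls and to 34.5 and 18.9 CPM in the *Ash1L* shRNA samples. The part of these cell types in the values of *Fkbp5*, *Sgk1* and *Plin4* was not tested.

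**Figure D5:**
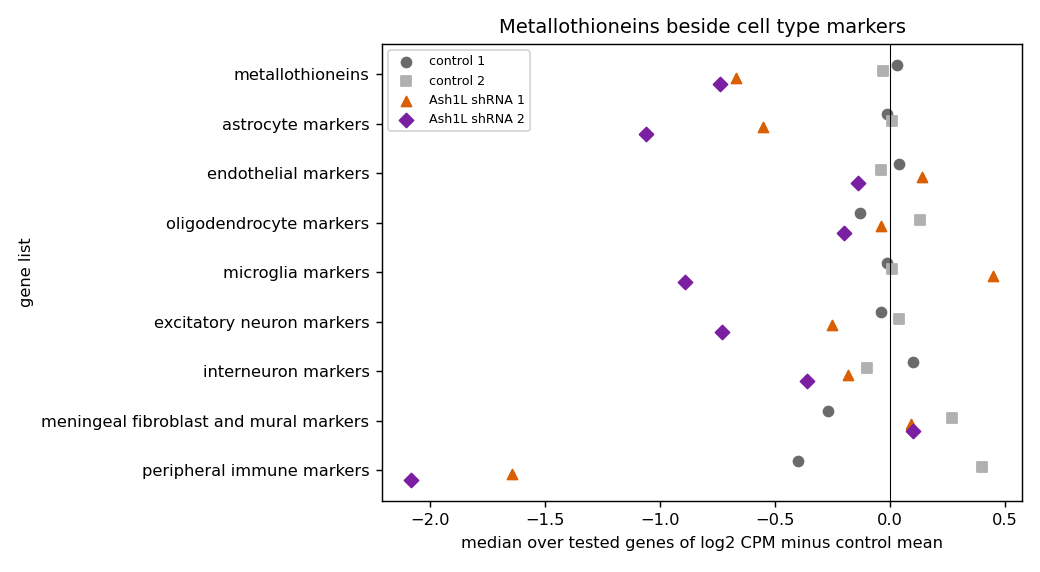
Median log2 CPM minus the control mean (x axis) for the metallothioneins and 8 lists of cell type markers (y axis), 1 point per sample. In the *Ash1L* shRNA samples the metallothioneins are at -0.67 and -0.74 and the astrocyte markers at -0.55 and -1.06, while the endothelial markers lie on either side of 0.

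The genes whose pattern over the 4 samples lay nearest to a member were found by Euclidean distance between log2 differences from the control mean, among 8182 genes with a mean count of at least 500. Nearest to *Mt2* were *Itih3* (distance 0.22), *Itga4* (0.31) and the astrocyte marker *Fgfr3* (0.37). *Itih3*, an inter-alpha-trypsin inhibitor heavy chain, was at 30.3 and 28.3 CPM in the controls and at 14.6 CPM in both *Ash1L* shRNA samples. Nearest to *Fkbp5* were *Utp20* (0.07), *Aff1* (0.10) and *Plcxd1* (0.10). *Utp20*, a factor of ribosome assembly, was at 47.7 and 49.5 CPM in the controls and at 57.2 and 92.2 CPM in the *Ash1L* shRNA samples. With 4 samples, likeness of this kind is a description.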

How the data were processed

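RNA-seq was carried out on PFC of 2 control and 2 *Ash1L* shRNA samples. The deposited files hold raw counts per gene symbol, which the authors obtained with featureCounts from reads aligned with STAR to mm10 per the file headers and methods. The labels' protocol names Cutadapt and TopHat2 instead, and the strand and multi-mapping settings are not given in the sources used here. Counts were fitted with edgeR 4.0.16 (R 4.3.3; filterByExpr, TMM, robust quasi-likelihood test) with no replicate block, and p-values were adjusted by Benjamini-Hochberg over 16232 genes. The script was tested on simulated data. DOWN and UP denote P under 0.05 and at least 1.2-fold.

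CPM are TMM-scaled. Levels per kb use the exon length of GENCODE vM21, to which 93.0% of symbols matched. Promoter windows came from RefSeq. In lists, the genes named were taken from the largest changes among those called and from the highest counts, and not all of these are named. Any others are marked as chosen after their values were seen. Alternatives were DESeq2 1.42.0, RLE or library size scaling, other count filters, a likelihood ratio test, a 1.5-fold limit, a replicate block and leaving out each sample.

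The members and lists were chosen with earlier results of these data known. The labels do not say that samples came from separate animals, so p-values measure the spread between these samples, which may be technical. Replicates differed by more than counting noise (chi-square per degree of freedom 14.8 for the controls and 42.3 for *Ash1L* shRNA). A gene near the metallothionein cluster is not reported here.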

Additional observations from a re-analysis of the deposited data

How the results depend on the processing

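All 10 members kept the sign of their log2 ratio under the 8 alternatives that keep all 4 samples, with *Mt2* between -1.16 and -1.12, *Mt1* between -0.71 and -0.67, *Fkbp5* between 0.53 and 0.62 and *Sgk1* between 0.57 and 0.69. *Plin4* and *Nr3c1* changed sign without *Ash1L* shRNA sample 2. The difference between metallothioneins and targets (-0.78) ranged from -1.02 to -0.48 over the samples left out, and *Ash1l* from -0.97 to -0.31. *Ash1l* was no longer DOWN without *Ash1L* shRNA sample 2 (-0.31), control sample 1 (-0.71) or control sample 2 (-0.48). Where a value moved, the cause was not tested, except that a stricter fold limit leaves fewer calls by construction.

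Same-numbered samples had a correlation of deviations of -0.11. With 2 samples per group, this value cannot show whether same-numbered samples shared a batch. With the replicate block, hypoxia-responsive genes had 0 DOWN and meningeal and mural markers 2 DOWN. With the crossed replicate block, chosen after seeing the data, there were 3 DOWN for metal genes, 3 for oligodendrocyte and 1 for microglia markers and 1 UP for meningeal and mural markers.

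With a 1.5-fold limit, 491 genes were DOWN and 765 UP. In the lists that limit left 0 DOWN and 0 UP for receptor partners, 1 UP for metal genes, 3 UP for cytokine and acute phase genes, 0 DOWN and 1 UP for hypoxia-responsive genes and 1 DOWN for excitatory neuron markers. Without a filter on low counts, DOWN calls were 1 for other glucocorticoid-responsive genes, 2 for metal genes, 0 for cytokine and acute phase genes, 2 for oligodendrocyte and 2 for meningeal and mural markers. At least 10 counts in every sample left 2 DOWN for immune markers. Library size scaling gave 1 DOWN and a median of -0.06 for receptor partners and a median of 0.03 for metal genes. The likelihood ratio test gave 1 DOWN for receptor partners and 2 for metal genes. DESeq2 gave 1 DOWN for microglia and 1 UP for meningeal and mural markers.

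With each sample left out in turn, DOWN genes ranged from 306 to 2718 and UP genes from 423 to 2368, both lowest without control sample 2 and highest without *Ash1L* shRNA sample 1. DOWN calls ranged from 1 to 4 for other glucocorticoid-responsive genes, 0 to 5 for receptor partners, 1 to 6 for metal genes, 0 to 1 for cytokine and acute phase genes and for hypoxia-responsive genes, 0 to 2 for endothelial, 0 to 4 for oligodendrocyte, 0 to 9 for microglia, 1 to 7 for excitatory neuron, 1 to 4 for interneuron, 1 to 2 for meningeal and mural and 3 to 6 for immune markers. UP calls ranged from 0 to 6 for other glucocorticoid-responsive genes, 0 to 1 for receptor partners, 1 to 6 for metal genes, 1 to 8 for cytokine and acute phase genes, 0 to 6 for hypoxia-responsive genes and microglia markers, 0 to 1 for interneuron and 0 to 2 for meningeal and mural markers. The median log2 ratio of other glucocorticoid-responsive genes was 0.19 without *Ash1L* shRNA sample 1 and -0.06 without sample 2. Median log2 ratios ranged from -0.14 to -0.07 for receptor partners, 0.02 to 0.07 for metal genes, 0.28 to 0.42 for cytokine and acute phase genes, 0.05 to 0.24 for hypoxia-responsive genes, -1.06 to -0.56 for astrocyte, -0.15 to 0.15 for endothelial, -0.90 to 0.45 for microglia, -0.73 to -0.25 for excitatory neuron, -0.08 to 0.40 for meningeal and mural and -2.17 to -1.29 for immune markers. With 2 samples per group and as few as 14251190 counts, low genes such as *Hif3a* are the least certain.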
